A study of Mus musculus with 2 samples.

Results

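The DEAD and DEAH box helicase genes of the mouse were examined for trimethylation of histone H3 at lysine 4 (H3K4me3) at their promoters. Members were chosen by name, as the coding genes on autosomes in RefSeq's table for GRCm38.p6 (mm10) whose symbols begin with Ddx or Dhx and a digit, without Ddx4. This gave 50 genes of the 20364 autosomal protein-coding genes that could be given a strand. The family was selected with its promoter signal in these lists already known, so the promoter values below describe it and no test was made on them. The data came from chromatin immunoprecipitation followed by sequencing (ChIP-seq) of E14TG2a.4, a male embryonic stem cell line of mouse strain 129/Ola, with an antibody to H3K4me3. There were 2 biological replicates of this 1 line, in 1 group with no treatment named in the labels, so no comparison of conditions was possible. On mm10 the authors deposited a peak list for each replicate, a list from the pooled replicates and a replicated list derived from those 3. Read counts were not used here, so the depth behind each value is unknown.

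DEAD and DEAH box proteins are ATP-driven enzymes that unwind short RNA duplexes, remodel RNA-protein complexes or clamp onto RNA, and are named after the residues of a conserved ATPase motif. They act at nearly every step in the life of an RNA, from splicing and ribosome assembly through export and translation to decay, and a few sense viral RNA. H3K4me3 collects on the nucleosomes around the starts of genes, usually at promoters rich in CpG dinucleotides, where methyltransferase complexes of the COMPASS family lay it down.

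A promoter counted as marked if the replicated list had a peak reaching within 1 kb of the 5′ end of the gene. Its signal was the value of the strongest such peak, which the authors give as a ratio of ChIP over control. Its domain was the widest run of peaks less than 1 kb apart that reached the same window. Signals in the replicated list equalled those of the pooled list at 48 of 48 marked members, and the values of a single replicate were lower for most members, so lists were read side by side and not against each other. Markers of the labelled cell type were present. All 6 stem cell marker genes were marked, with signals from 37.7 to 69.4, against 2 of 9 liver, blood and muscle markers, at 8.77 for Cd3e and 11.5 for Myod1. Of 5 fibroblast markers, which feeder cells would carry, 3 were marked, with signals from 13.7 to 23.4. In bulk chromatin a lower signal from fewer marked cells and one from a lower level in each cell cannot be told apart.

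Promoter sequences from RefSeq on GRCm38.p6 matched 44 of the 50 members. The 6 without one were Ddx6, Ddx11, Ddx23, Ddx39a, Dhx38 and Dhx58. The first set shows promoters that differ in CpG content, at the member with the highest signal (Dhx40, chr11:86807631-86807860, minus strand), the second highest (Dhx33, chr11:71004403-71004632, minus strand), the member with the most CpG (Ddx25, chr9:35558441-35558670, minus strand) and one of the weakest (Dhx32, chr7:133782756-133782985, minus strand). Each stretch runs 5′ to 3′ over 230 bases, from 200 bases before a RefSeq start, and capitals mark every CpG.
Dhx40: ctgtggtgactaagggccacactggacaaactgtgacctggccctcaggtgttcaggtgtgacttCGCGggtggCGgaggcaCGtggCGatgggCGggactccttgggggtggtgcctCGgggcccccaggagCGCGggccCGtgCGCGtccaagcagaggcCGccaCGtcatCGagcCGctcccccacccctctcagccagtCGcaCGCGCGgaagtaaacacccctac
Dhx33: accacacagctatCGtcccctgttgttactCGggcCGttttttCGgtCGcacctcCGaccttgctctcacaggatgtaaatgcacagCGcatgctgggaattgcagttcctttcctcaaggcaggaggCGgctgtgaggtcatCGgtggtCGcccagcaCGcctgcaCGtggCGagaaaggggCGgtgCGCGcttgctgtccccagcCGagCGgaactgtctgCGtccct
Ddx25: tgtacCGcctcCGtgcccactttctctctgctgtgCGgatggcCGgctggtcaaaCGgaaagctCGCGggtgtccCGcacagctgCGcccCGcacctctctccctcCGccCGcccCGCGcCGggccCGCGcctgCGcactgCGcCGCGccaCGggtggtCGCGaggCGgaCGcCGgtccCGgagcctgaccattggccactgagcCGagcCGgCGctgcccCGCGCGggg
Dhx32: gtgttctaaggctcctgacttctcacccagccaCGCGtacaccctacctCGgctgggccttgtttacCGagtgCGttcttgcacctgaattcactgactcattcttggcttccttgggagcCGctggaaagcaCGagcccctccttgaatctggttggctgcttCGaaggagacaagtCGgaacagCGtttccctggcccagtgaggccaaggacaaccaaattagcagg

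The second set shows the pair of innate immune members that carried low signal, Ddx58 (chr4:40239796-40240025, minus strand) and Ddx60 (chr8:61927887-61928116, plus strand). They were the only members with a TATAAA match among the 44 with a sequence. Dhx58, the other member of the innate immune group, had no sequence to search. Capitals mark every stretch of GAAA, any 2 bases and GAAA again, on either strand. This spaced repeat is found in interferon-stimulated response elements.
Ddx58: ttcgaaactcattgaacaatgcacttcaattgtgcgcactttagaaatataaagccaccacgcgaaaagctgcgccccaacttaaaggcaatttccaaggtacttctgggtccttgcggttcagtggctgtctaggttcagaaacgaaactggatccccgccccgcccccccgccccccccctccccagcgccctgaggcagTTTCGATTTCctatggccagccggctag
Ddx60: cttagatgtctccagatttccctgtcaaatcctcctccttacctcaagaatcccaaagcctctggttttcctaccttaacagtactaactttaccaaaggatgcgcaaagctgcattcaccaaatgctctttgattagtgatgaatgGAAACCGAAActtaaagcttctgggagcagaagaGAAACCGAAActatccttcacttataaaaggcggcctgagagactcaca

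The third set shows promoters of members with high signal that hold CCGGAAG, the core recognised by ETS family factors, in capitals. These are Dhx9 (chr1:153487631-153487860, minus strand), Dhx16 (chr17:35879578-35879807, plus strand) and Ddx50 at its downstream RefSeq start (chr10:62651189-62651418, minus strand).
Dhx9: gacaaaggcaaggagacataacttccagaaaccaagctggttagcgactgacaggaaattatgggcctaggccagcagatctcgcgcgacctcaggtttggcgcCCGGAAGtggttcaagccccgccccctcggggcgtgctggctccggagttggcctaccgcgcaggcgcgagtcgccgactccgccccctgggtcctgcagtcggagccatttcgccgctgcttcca
Dhx16: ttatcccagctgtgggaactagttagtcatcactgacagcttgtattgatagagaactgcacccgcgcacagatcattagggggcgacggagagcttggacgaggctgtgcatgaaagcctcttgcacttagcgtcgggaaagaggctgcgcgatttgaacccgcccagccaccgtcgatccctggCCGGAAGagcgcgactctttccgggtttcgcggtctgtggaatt
Ddx50: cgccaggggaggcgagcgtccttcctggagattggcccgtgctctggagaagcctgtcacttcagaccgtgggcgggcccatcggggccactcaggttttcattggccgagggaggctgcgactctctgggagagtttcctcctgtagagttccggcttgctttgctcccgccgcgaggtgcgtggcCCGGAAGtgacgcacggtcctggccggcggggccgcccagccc

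Nearly the whole family carried a promoter peak. In the replicated list 48 of the 50 members were marked, and the exceptions were Ddx56 and Dhx58. The background was 68.1% of all autosomal protein-coding genes. A peak was present in both replicate lists at 47 members (background 67.5%), the difference being Ddx50, which had none in the list of replicate 2. When any RefSeq start of a gene was allowed, 49 members were marked (background 71%). On the mm9 build, with any start of a coding transcript in the vM1 annotation, 49 members lay under a region of the pooled list (background 69.9%). All 50 members had such a start, while genes lacking one counted as unmarked in that background. Dhx58 was the member left without a peak or region in both counts of 49.

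The signal was high as well as frequent. Over the 48 marked members the median signal was 63.3, with a range from 3.74 to 92.3, and over all 13868 marked genes it was 43.9. In the list of replicate 1 the medians were 55.9 for the members and 39.2 for all marked genes, and in the list of replicate 2 they were 55.2 and 37.6. The top 25% of marked genes by signal began at 58.1, and 33 members lay there (background 17.2% of all genes). Signals over 60 were found at 31 members, and signals under 20 at 5. Among all marked genes a signal of 60.8, that of Ddx19a, stood at the 79.9 percentile, and one of 16.2, that of Ddx58, at the 16.4 percentile. The family therefore had a long flat top and a short tail of weak promoters, and no member lay between 16.2 and 30.6.

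**Figure D1:**
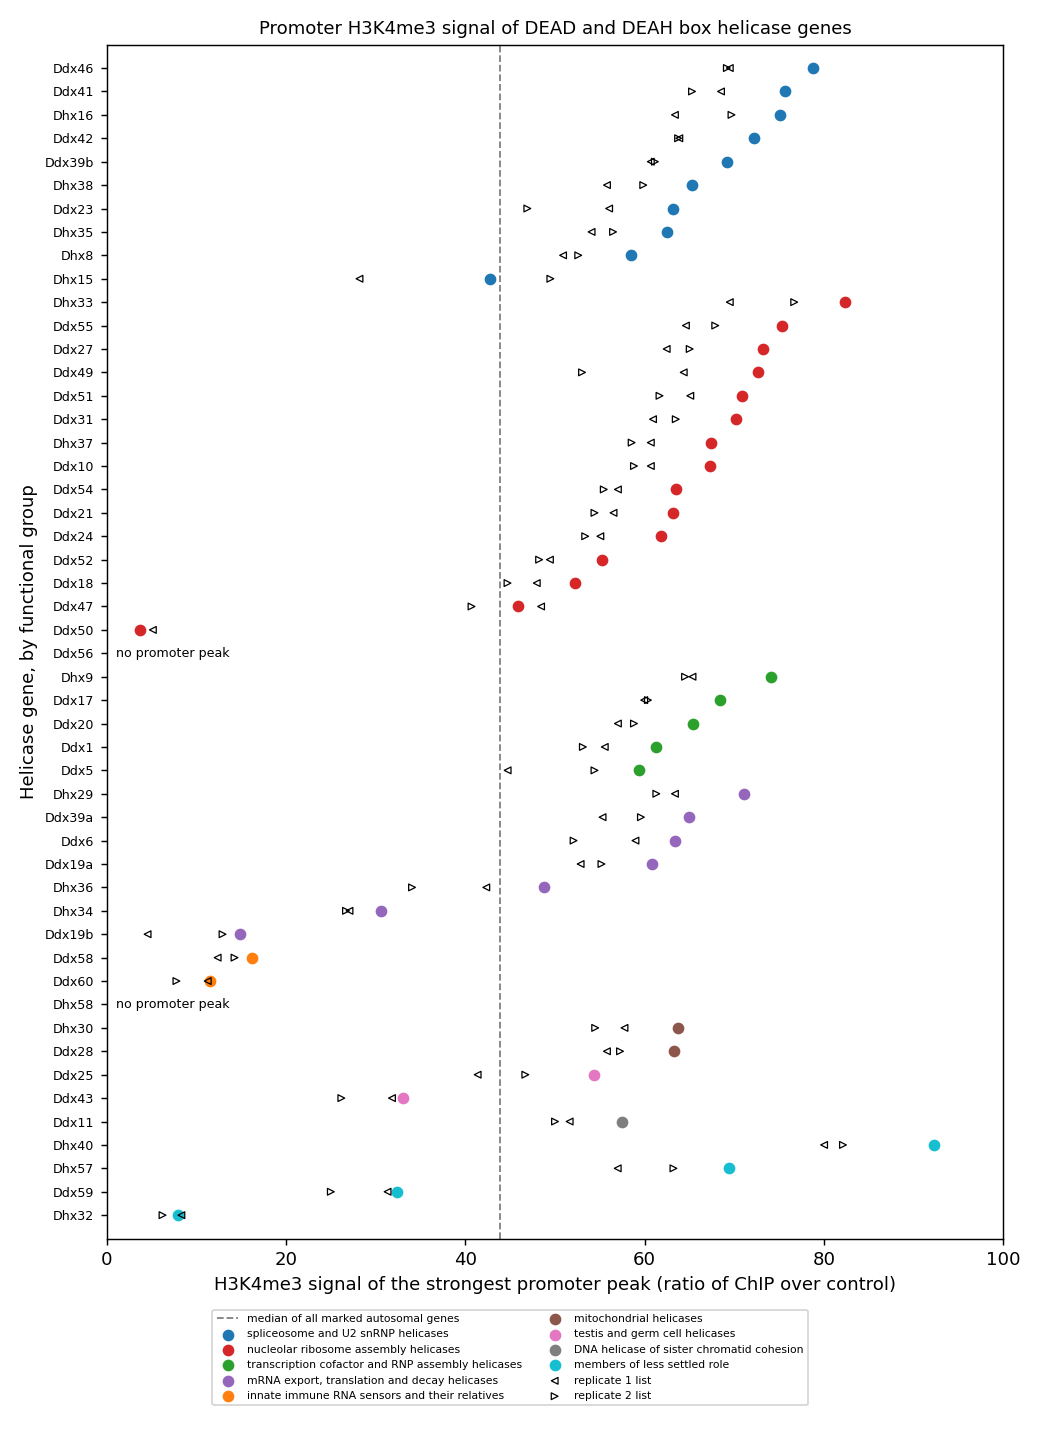
H3K4me3 signal of the strongest promoter peak (x axis, ratio of ChIP over control) for each helicase gene (y axis, grouped by function): filled circles are the replicated list, open triangles pointing left and right the lists of replicates 1 and 2, with a dashed line at 43.9, the median for marked autosomal genes. Of the 48 marked members 39 lie right of the line, Dhx40 is highest at 92.3, and the innate immune sensors and Ddx50, Dhx32 and Ddx19b lie at the left.

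Domain width did not set the family apart in the same way. The median domain was 2626 bp wide over the members and 2448 bp over all marked genes, and 26 of 48 members were wider than the latter. Domains of 5 kb or more were found at 5 members (background 9.42%). Most domains were built from 1 peak, at 36 of 48 members (75%), as at 71.2% of all marked genes. The strongest summit lay 0 to 1 kb downstream of the 5′ end at 40 members, upstream of it at 5, and further downstream at 3. Over all marked genes it lay downstream at 84.9%. The median summit was 309.5 bp downstream for the members and 273 bp for all marked genes. The domain reached further into the gene than away from it at 41 of 48 members (85.4%), and at 80.5% of all marked genes.

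Replicates gave like values for most members. The signal was higher in replicate 1 at 26 of the 47 members present in both lists, and the median ratio of the higher to the lower value was 1.05. A ratio over 1.5 was found at 2 members, Ddx19b (2.84) and Dhx15 (1.76), and the next largest was 1.45 at Ddx60. Summits of the replicates lay within 100 bp of each other at 40 of 47 members. Across these 47 genes, which share the same libraries, Spearman's rho between replicates was 0.897 for signal and 0.855 for width.

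The spliceosomal helicases drive the rearrangements of small nuclear RNAs and proteins through each splicing cycle. All 10 members of this group were marked, with a median signal of 67.2 and a range from 42.7 to 78.8, and 9 lay in the top 25%. Ddx46, which helps the U2 particle engage the branch site, was the strongest, with 78.8 in the replicated list, 69.5 in replicate 1 and 69.2 in replicate 2. Its domain, chr13:55634181-55636644, was 2464 bp wide with the summit 187 bp downstream of the 5′ end. Ddx41, a helicase of the catalytic spliceosome known from inherited leukaemia risk, followed with 75.6, 68.5 and 65.3, in a domain of 2213 bp (chr13:55535051-55537263) with its summit at 591 bp. These genes sit 98.3 kb apart and have separate domains.

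The other spliceosomal members kept close to these. Dhx16, which remodels the activated spliceosome before the first step, had 75.1 in the replicated list. Ddx42, an RNA chaperone of the U2 particle, had 72.2, and Dhx38, which acts between the catalytic steps, had 65.3. Ddx23, a helicase that helps to swap U1 for U6 at the 5′ splice site, had 63.1 in the narrowest domain of the group, 1520 bp. Dhx35 had 62.5, and Dhx8, which releases the spliced mRNA, had 58.5.

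Dhx15, which takes the spliceosome apart and also serves ribosome assembly, was the weakest of the group and disagreed between replicates. It had 42.7 in the replicated list, 28.2 in replicate 1 and 49.5 in replicate 2. Its domain, chr5:52185882-52191819, was the fourth widest of the family at 5938 bp, and was 3865 bp in replicate 1 and 6397 bp in replicate 2. The summit moved with the list, from 800 bp downstream in replicate 1 to 221 bp in replicate 2, so the 2 lists gave their highest point to different places of 1 domain. Ddx39b, the UAP56 protein that loads U2 and hands mRNA to export, had an even signal (69.2, with 60.7 and 61.1 in the replicates) over the second widest domain, 7176 bp at chr17:35240279-35247454, which reached 5708 bp into the gene.

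The nucleolar helicases fold ribosomal RNA and release small nucleolar RNAs during ribosome assembly, and form the largest group. Of 16 members 15 were marked at the 5′ end, with a median signal of 67.3 and a range from 3.74 to 82.4, and 11 lay in the top 25%. Dhx33, which supports transcription of ribosomal DNA, was the second strongest gene of the family, with 82.4 in the replicated list, 69.5 in replicate 1 and 76.7 in replicate 2. Its domain, chr11:71002911-71005195, was 2285 bp wide with the summit 315 bp downstream. Ddx55, needed for the large subunit, followed with 75.3, 64.6 and 67.9, in a domain of 2254 bp (chr5:124551844-124554097) with the summit at 195 bp.

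Most other nucleolar members ranged from 61.8 to 73.2. Relatives of yeast large-subunit factors were found from top to bottom of that range: Ddx27 had 73.2, Ddx51 had 70.9, Ddx31 had 70.2, Ddx54 had 63.6 and Ddx24 had 61.8. Relatives of small-subunit factors lay there too, with 72.6 at Ddx49, 67.4 at Dhx37 and 67.3 at Ddx10. Lower values were found at Ddx52 (55.2), a relative of a small-subunit factor, and at Ddx18 (52.2), which serves the large subunit. Ddx47, another relative of a small-subunit factor, had 45.8, with 48.4 and 40.7 in the replicates, in one of the narrowest domains of the family, 1293 bp (chr6:135011453-135012745, summit at 249 bp).

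Ddx21 and Ddx50, a pair of closely related nucleolar genes whose 5′ ends lie 56.5 kb apart on chromosome 10, differed in signal and width at those ends. Ddx21, which couples transcription by RNA polymerases I and II to ribosomal RNA processing, had 63.1 in the replicated list, 56.5 in replicate 1 and 54.4 in replicate 2, over 1 unbroken peak of 6825 bp (chr10:62596783-62603607, summit at 200 bp). That peak was 6709 bp in replicate 2, while the domain was 3507 bp in replicate 1. Ddx50 had 3.74 in the replicated list, 5.14 in replicate 1 and no peak in replicate 2, in the narrowest domain of the family, 403 bp at chr10:62658119-62658521, whose near edge lay 243 bp inside the gene.

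The low value of Ddx50 belonged to its 5′-most start and not to the gene. At a RefSeq start 7546 bp downstream, the one whose sequence is printed above, the signal was 69.9 in the replicated list, 63.6 in replicate 1 and 58.8 in replicate 2, with a domain of 2711 bp (chr10:62649708-62652418). Ddx56, a helicase of large-subunit assembly, gave the same picture. Its 5′ end had no replicated peak within 1 kb, the nearest lying 1174 bp away, just outside the window. At its other RefSeq start, 2057 bp downstream, it had 71.1, 58.1 and 66.6, in a domain of 3434 bp (chr11:6265179-6268612). Counted at these starts, both genes lay in the top 25%. For these genes the value at the 5′ end was thus not the highest among the annotated starts.

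The helicases that serve as transcription cofactors or in RNP assembly were all marked, and all 5 lay in the top 25%, with a median of 65.4 and a range from 59.3 to 74.0. Dhx9, also called RNA helicase A, which bridges transcription factors to RNA polymerase II and resolves R-loops, had 74.0 in the replicated list, 65.3 in replicate 1 and 64.5 in replicate 2. It had the widest domain of the family, 13664 bp at chr1:153481084-153494747, made of 6 peaks. The central peak, with the summit 530 bp downstream, took 7363 bp of it, and the 5 flanking peaks had signals from 3.35 to 4.38. The width depended on the list, 17432 bp in replicate 1 and 8306 bp in replicate 2.

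Ddx17 and Ddx5, paralogs that act in splicing, microRNA processing and transcription, had broad domains of 4776 and 4856 bp. Ddx17 had 68.4, 59.95 and 60.4 in the 3 lists, at chr15:79543157-79547932 with its summit 388 bp downstream. Ddx5 had 59.3, 44.7 and 54.4, and its summit lay 1863 bp downstream in the replicated list and at 1854 and 1782 bp in the replicates. Ddx20, a subunit of the SMN complex that assembles small nuclear RNPs, had 65.4, and Ddx1, a subunit of the transfer RNA ligase complex, had 61.3.

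Helicases of export, translation and decay act on the finished mRNA. All 7 were marked, with a median signal of 60.8 and a wide range, from 14.8 to 71.0, and 4 lay in the top 25%. Dhx29, which helps the scanning ribosome through structured leaders, had 71.0, 63.4 and 61.3 over 3759 bp (chr13:112925220-112928978, summit at 264 bp). Ddx39a, a paralog of Ddx39b in mRNA export, had 65.0, 55.3 and 59.6 over 3739 bp (chr8:83714773-83718511, summit at 651 bp). Its domain was narrower than that of Ddx39b, with values nearly as high.

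Ddx6, which represses translation and sends mRNA to decay in P-bodies, had 63.4, 59.0 and 52.1 over 5392 bp (chr9:44603047-44608438). It was the only marked member besides Ddx50 whose domain did not cover the 5′ end. The domain began 64 bp downstream, and the summit lay at 2097 bp, and at 2102 and 2092 bp in the replicates. Dhx36, which unwinds G-quadruplexes, had 48.7, and Dhx34, a factor of nonsense-mediated decay, had 30.6.

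Ddx19a and Ddx19b, adjacent paralogs that release mRNA at the nuclear pore, differed at their 5′ ends, which lie 33.9 kb apart. Ddx19a had 60.8, with 52.9 in replicate 1 and 55.2 in replicate 2. Ddx19b had 14.8, 4.55 and 12.9, with the summit at 1719 bp in the replicated list and at 80 and 1631 bp in the replicates, in a domain of 4703 bp (chr8:111027084-111031786). This domain joined 2 peaks. The domain at the 5′ end was 2070 bp in replicate 1 and 2183 bp in replicate 2. At its second RefSeq start, 3981 bp downstream and inside the domain of the replicated list, Ddx19b had 47.9, 43.8 and 40.2. That start lies 8 bp from the 5′ end of Aars, the alanyl-tRNA synthetase gene on the other strand, so this peak could not be given to Ddx19b alone.

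The innate immune group had the lowest median signal of the 9 groups, 13.9 over its 2 marked members. Low values were not confined to it, since Ddx50 and Dhx32 lay below both. Ddx58 encodes RIG-I, a cytoplasmic sensor of viral RNA ends, Dhx58 encodes the related protein LGP2, which has no signalling domain, and Ddx60 has been described as a cofactor of these sensors. None of the 3 reached the median of all marked genes. Ddx58 had 16.2 in the replicated list, 12.4 in replicate 1 and 14.2 in replicate 2, over 2116 bp (chr4:40238460-40240575, summit at 950 bp). A second peak of Ddx58 lay in the gene body 19333 bp downstream, far from any RefSeq start of the gene, with 15.0. Ddx60 had 11.5, 11.3 and 7.77 over 2000 bp (chr8:61927027-61929026, summit at 204 bp).

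Dhx58 had no promoter peak in any list, mm9 included. The nearest replicated peak lay 1860 bp from its 5′ end, inside the gene, with a signal of 3.31, and it was reached only with a window of 2 kb. Ifih1, which encodes the third sensor of this class, MDA5, is outside the name rule and had 9.35, with 9.30 and 9.07 in the replicates. Each of these 4 genes thus had a low signal or none in both replicates.

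Both mitochondrial helicases, which help to assemble the mitochondrial ribosome, lay in the top 25%. Dhx30 had 63.7, 57.8 and 54.5 over 2951 bp (chr9:110115964-110118914), with the summit 193 bp upstream of the 5′ end. A second RefSeq start of Dhx30, 16529 bp downstream, had 69.9, 63.1 and 60.4 in a separate domain of 2389 bp, so this gene had 2 strong promoters in both replicates. Ddx28 had 63.3, 55.8 and 57.3 over 2770 bp (chr8:106009689-106012458, summit at 231 bp).

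A pair of members is best known from testis and germ cells, and both were marked in the stem cell line. Ddx25, the gonadotropin-regulated testicular helicase, had 54.3, 41.4 and 46.7 over 3739 bp (chr9:35557955-35561693). Its summit lay 1207 bp upstream in the replicated list and 1211 and 1254 bp upstream in the replicates, on the side of Pus3, a pseudouridine synthase gene that starts 90 bp away on the other strand. The domain reached 515 bp into Ddx25 and 3223 bp the other way. Ddx43, a cancer-testis antigen with no such neighbour, had 33.1, 31.8 and 26.2 over 1419 bp (chr9:78395284-78396702, summit at 240 bp). Ddx11, a DNA helicase of sister chromatid cohesion, had 57.5, 51.6 and 50.002 over 2108 bp (chr17:66123164-66125271, summit at 204 bp).

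The last 4 members have less settled roles and ranged from 7.91 to 92.3, with a median of 50.9. Dhx40 was the strongest gene of the family, with 92.3 in the replicated list, 80.0 in replicate 1 and 82.1 in replicate 2. Its peak, chr11:86806665-86808035, tied for the highest signal among all 62128 replicated peaks with one near 4930456A14Rik. It ranked first of 86781 peaks in replicate 1 and second of 83750 in replicate 2. At 1371 bp this was also one of the narrowest domains of the family, with the summit at 459 bp, and was 1237 and 1280 bp in the replicates. Its width stood at the 15.3 percentile of marked genes.

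Dhx57 had 69.4, 57.0 and 63.2 over 2106 bp (chr17:80288676-80290781, summit at 535 bp). Ddx59, known from an inherited disorder of face and digits, had 32.4, 31.3 and 24.99. Dhx32, whose protein departs from the canonical motifs, had 7.91, 8.32 and 6.22 over 702 bp (chr7:133782566-133783267), with the summit 273 bp upstream. Like Ddx50, Dhx32 had more at other starts. At the RefSeq start 5982 bp downstream the signal was 38.7, 35.0 and 33.4, with a peak whose middle lay 198 bp from the 5′ end of Fank1, so the peak could not be given to 1 of the 2 genes. At the start 22516 bp downstream it was 21.6.

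**Figure D2:**
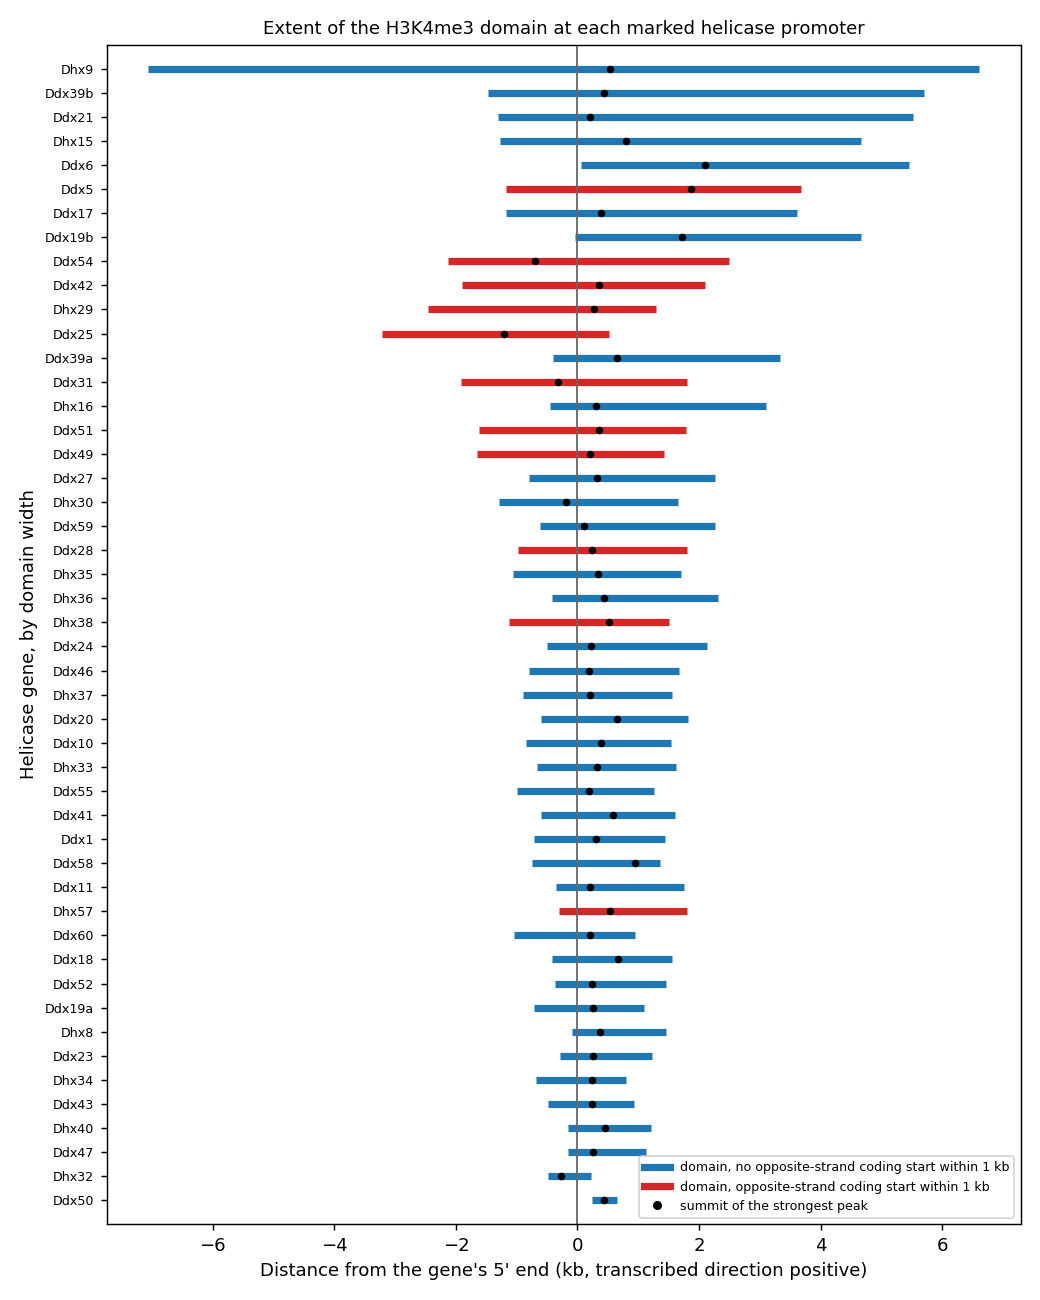
Extent of the H3K4me3 domain around the 5′ end (x axis, kb, transcribed direction positive) of each of the 48 marked helicase genes (y axis, by width): bars are domains of the replicated list, red where a coding gene starts on the other strand within 1 kb, and dots are summits of the strongest peak. Dhx9 is widest at 13664 bp, most bars extend to the right, and red bars such as Ddx25 and Dhx29 extend further to the left.

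The 5 widest domains therefore belonged to Dhx9, Ddx39b, Ddx21, Dhx15 and Ddx6, and the 5 narrowest to Ddx50, Dhx32, Ddx47, Dhx40 and Ddx43. Width followed signal only weakly. Across the 48 marked members Spearman's rho between signal and width was 0.318, a description over genes of the same libraries. Dhx40 and Dhx9 show the spread, the former with the highest signal on 1371 bp and the latter with 74.0 on 13664 bp. Dhx15 had a wide domain under middling signal. The 4703 bp domain of Ddx19b, with 14.8 at the 5′ end, also took in a stronger peak of 47.9 at its second start.

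**Figure D3:**
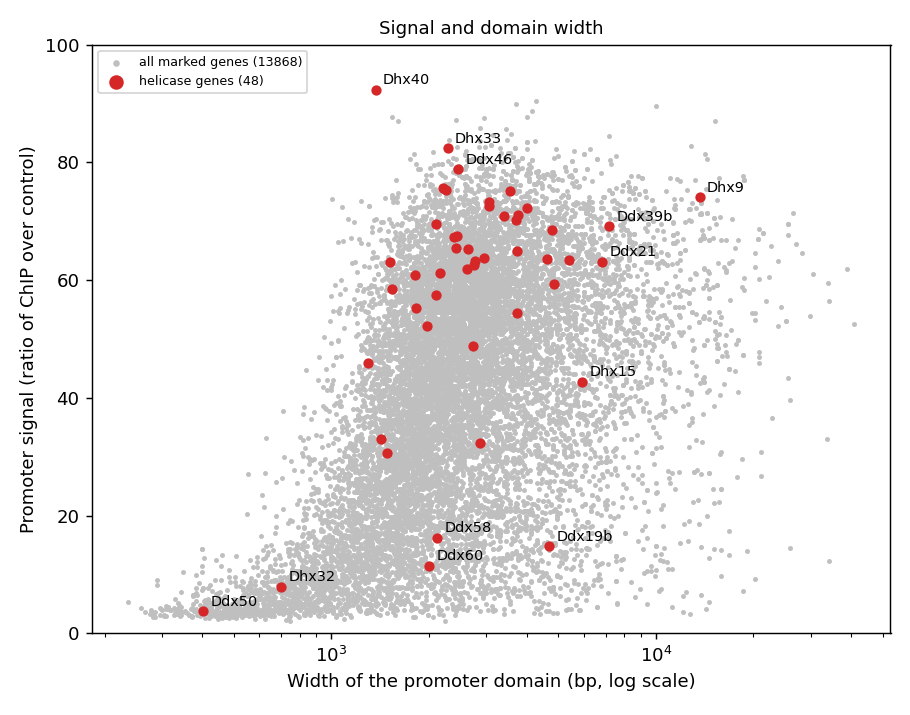
Promoter signal (y axis, ratio of ChIP over control) against domain width (x axis, bp, log scale) for the 48 marked helicase genes (red) and all 13868 marked genes (grey) in the replicated list. Most helicase genes lie above a signal of 60, at widths from 1371 bp at Dhx40 to 13664 bp at Dhx9. Domains narrower than that of Dhx40 lie below 60: Ddx50 (403 bp, signal 3.74), Dhx32 (702 bp, 7.91) and Ddx47 (1293 bp, 45.8).

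Shared starts went with wider domains. At 11 members a coding gene began on the other strand within 1 kb (22%, against 11.2% of all autosomal genes), and in every case the same peak was the strongest of both genes. The pairs were Ddx25 with Pus3, Ddx28 with Dus2, Ddx31 with Gtf3c4, Ddx42 with Ccdc47, Ddx49 with Cope, Ddx5 with Cep95, Ddx51 with Noc4l, Ddx54 with Rita1, Dhx29 with Mtrex, Dhx38 with Txnl4b and Dhx57 with Morn2. Mtrex is itself an RNA helicase gene, of the nuclear exosome, and starts 300 bp from Dhx29. Noc4l, beside Ddx51, encodes a ribosome assembly factor, and Gtf3c4, beside Ddx31, a subunit of a transcription factor of RNA polymerase III.

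The median signal of these 11 members was 69.4 and their median width 3721 bp, against 62.5 and 2390 bp for the 37 marked members without such a neighbour. Over all marked genes the corresponding medians were 57.3 and 3133 bp with a neighbour and 40.3 and 2297 bp without. The members with a neighbour had a median reach of 1650 bp upstream and 1796 bp downstream, while the others had 611 and 1622 bp. Where the partner began upstream, the summit lay on its side at Ddx25, at Ddx54 (702 bp upstream) and at Ddx31 (319 bp upstream). It lay downstream, away from the partner, at Ddx42 (353 bp), Ddx49 (205 bp), Ddx51 (359 bp), Dhx29 (264 bp) and Dhx38 (514 bp). At Ddx51 the summit in replicate 2 lay 272 bp upstream. Cep95, Morn2 and Dus2 began downstream of the 5′ ends of Ddx5, Dhx57 and Ddx28, by 545, 273 and 8 bp. The summits of Ddx5, Dhx57 and Ddx28 also lay downstream, at 1863, 535 and 231 bp, as did those of 84.9% of all marked genes. A peak at a shared start cannot be given to either gene. The median of 62.5 for members without an opposite-strand coding start stood beside 40.3 for all marked genes without one. Among these members, Ddx41, Ddx59, Dhx15 and Dhx30 had another gene's 5′ end within 1 kb, and they were kept. Those neighbours were Gm46416, 9230116N13Rik, 9230114K14Rik and Gm10615, in the same order.

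The promoter windows of the members were rich in CpG. In the 300 bases from 250 before to 50 after the RefSeq start nearest the 5′ end, the 44 members with a sequence held a median of 24 CpG, from 6 at Ddx60 to 41 at Ddx25. The median was 20 over the 11076 marked genes with a sequence and 14 over all 16457. The ratio of observed to expected CpG had medians of 0.897, 0.752 and 0.597 in the same order. In the printed windows Dhx40 held 20 CpG, Dhx33 held 19, Ddx25 held 34 and Dhx32 held 10. Low values were found at weak promoters, with a ratio of 0.390 at Ddx60 and 0.431 at Dhx32. They were also found at Dhx57, which had 8 CpG, a ratio of 0.588 and a signal of 69.4. The Dhx57 peak is shared with Morn2, which starts 273 bp downstream, outside the window in which CpG was counted. Across 43 marked members rho between signal and this ratio was 0.295, and between width and the ratio 0.231, with Ddx50 paired across its starts. Without Ddx50 these were 0.283 and 0.214 over 42 members.

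**Figure D4:**
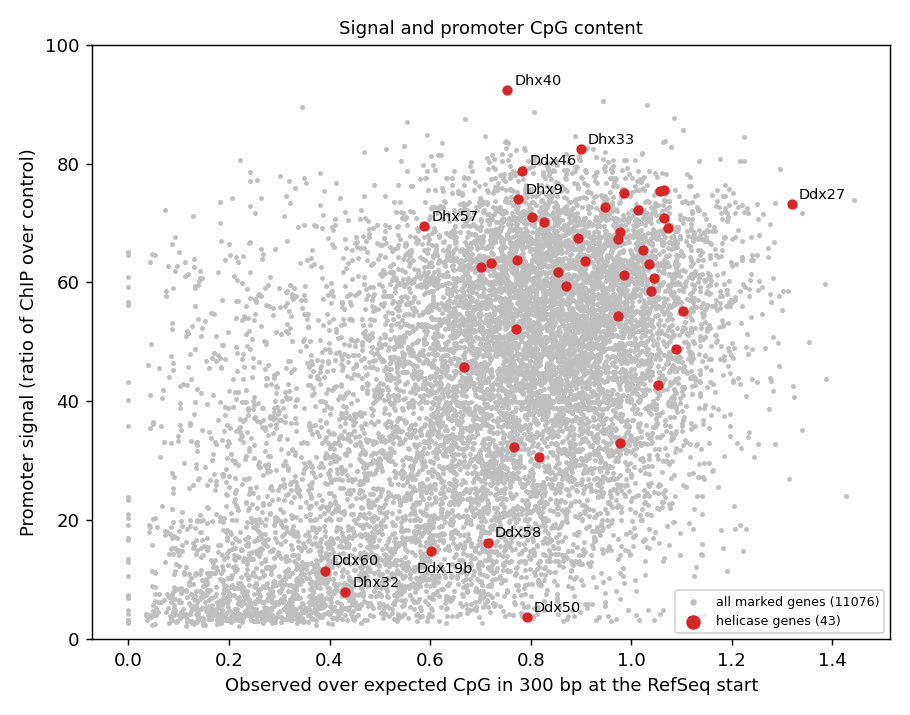
Promoter signal (y axis, ratio of ChIP over control) against the ratio of observed to expected CpG in the 300 bases at the RefSeq start (x axis) for 43 marked helicase genes (red) and 11076 marked genes (grey). Ddx60 and Dhx32 are low on both axes, Dhx57 combines 0.588 with 69.4, and Dhx40 is at the top with 0.754. The peak of Dhx57 is shared with Morn2, whose start lies outside the 300 bases. The signal of Ddx50 is that of its 5′ end and its CpG ratio that of the downstream start.

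Each promoter window was also searched on both strands for short motifs, as a description of letters and not of binding. CCGGAAG was present in 18 of 44 members (40.9%), against 12.3% of all promoter windows and 16.99% of those of marked genes. The 20 matches included 16 upstream of the start, and 10 members had one that began within 60 bp upstream. In the sequences above the match began 96 bp upstream at Dhx9, 14 bp upstream at Dhx16 and 13 bp upstream at Ddx50. Marked members with the motif had a median signal of 65.5, and those without it 61.8, while the medians over all marked genes were 55.6 and 41.8. Ddx50 enters here with the signal of its 5′ end and the sequence of its downstream start, and without it the median of the 17 other members with the motif was 67.3. Of the 18 members 8 were nucleolar, 4 spliceosomal (Ddx39b, Dhx8, Dhx16 and Dhx35), 3 cofactors or RNP assembly factors (Ddx1, Ddx17 and Dhx9), 2 of the export, translation and decay group (Dhx34 and Dhx36) and 1 mitochondrial (Dhx30).

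CCAAT was found in 22 members (50%, against 39.1% of all windows and 38.6% of those of marked genes), and GCGCATGC, the core of the NRF1 site, in 5 (11.4% against 3.66% of all windows and 5.16% of those of marked genes), which were Ddx19b, Ddx41, Dhx33, Dhx34 and Dhx37. GATGGCGG, a YY1 motif, was present at Ddx46, Ddx47 and Dhx36 (6.82% against 2.32% and 3.27%). In Ddx46 and Ddx47 it began 36 and 29 bp downstream of the start. CACGTG, the E-box read by Myc and related factors, was in 4 members, Ddx25, Dhx33, Dhx35 and Dhx40 (9.09%, above the 7.97% of all windows and below the 10.1% of those of marked genes), so its share was near the background. TCTCGCGA was in 0, against 1.48% of all windows and 2.09% of those of marked genes.

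TATAAA was present in 2 members, Ddx58 and Ddx60 (4.55%, against 13.5% of all windows and 7.04% of those of marked genes). It began 153 bp upstream of the start in Ddx58 and 3 bp downstream in Ddx60. The spaced GAAA repeat, searched for after these promoters had been seen, was in 3 members, Ddx49, Ddx58 and Ddx60 (6.82%, against 3.42% of all windows and 2.62% of those of marked genes). Ddx60 held 2 matches, 53 and 19 bp upstream, and Ddx58 held 1, beginning 2 bp downstream on the other strand. Ddx49, with a signal of 72.6, shares the letters but not the low signal. Dhx58 had no promoter sequence and was searched for neither motif.

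RNA helicase genes outside the name rule gave a similar picture. From a list of 21, which share the enzyme class but not the symbol, 19 were marked, with a median signal of 58.5 and a range from 4.91 to 75.3. The strongest were Eif4a2 and Eif4a3, DEAD box proteins of translation initiation and of the exon junction complex, with 75.3 and 71.7. The unmarked genes were Helz2, which had 4.15 in replicate 2 alone, and Tdrd9, a germ cell helicase of the piRNA pathway. The median width was 3098 bp.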

How the data were processed

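H3K4me3 ChIP-seq peak lists of 2 biological replicates of E14TG2a.4 were used as deposited. In the mm10 lists the signal is the authors' ratio of ChIP over control for each peak. The deposited mm10 lists also hold a −log10 q-value and a summit position for every peak. The mm9 regions carry a signal that the authors give as a ratio whose denominator is not stated, with edges on a grid of 200 bp. The authors built the replicated list out of the 3 others. The aligner and peak caller were not given in the sources used here. The number of reads is unknown, so no interval for counting error is given.

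Strand came from the RefSeq promoter table for 16457 genes and from the vM1 annotation, by name or synonym on the same chromosome, for 3907 genes, and 301 genes without one were left out. Peaks were set against the 1 kb on either side of each 5′ end and joined into domains when less than 1 kb apart, with Python 3.11.15, numpy 2.4.6 and scipy 1.17.1. The overlap code was checked on simulated peaks. The members, their functional groups, the marker lists and the list of other RNA helicases were chosen with earlier results of these data known. Full values were given for the 2 strongest members of each group (all in groups of 3 or fewer), the 5 widest, 5 narrowest and 5 weakest, unmarked members and those whose replicates differed by over 1.5 times. Other list, window, threshold and joining settings were tried. Allowing every RefSeq start, leaving out members with shared starts and searching for the spaced GAAA repeat were added after seeing the data. A planned search for protein motifs was not run, and no test was made, since there was 1 group.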

Additional observations from a re-analysis of the deposited data

How the results depend on the processing

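The count of 48 marked members was 47 to 48 when either replicate was left out, and 48 to 50 with the pooled mm10 list, with a q-value under 1e-05, with windows of 500 bp or 2 kb, on mm9 and with every RefSeq start. It was 37 of the 39 members without a shared start. The median signal of 63.3 was 55.2 to 55.9 with either replicate left out, 17.9 on mm9, where the denominator of the ratio is not stated and the values cannot be set against those of mm10, and 62.5 without members that share a start. The other settings moved it by less than the SD between replicates, 0.518 (n = 2). The median width of 2626 bp was 2376.5 to 2621 bp with either replicate left out, 2452 bp with a q-value under 1e-05, 3200 bp on mm9, 2390 bp without members that share a start, 2337.5 bp with no joining of peaks and 2819.5 bp with joining under 3 kb. The SD between replicates was 173 bp (n = 2). Ddx56 had a peak of 2.13 at its 5′ end in the pooled list. No paired analysis was possible because there was 1 group and no test. Depth limits what an unmarked promoter shows: a peak under a list's threshold is not recorded.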

Other observations

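A second strong peak lay inside Dhx16, far from the RefSeq starts of that gene. It covered chr17:35886999-35890030 on mm10 over 3032 bp, with a signal of 51.6 in the replicated list, 46.2 in replicate 1 and 34.6 in replicate 2, and its summit lay 8426 bp downstream of the 5′ end. The nearest RefSeq start of Dhx16 was 8736 bp from its middle, and the nearest other 5′ end, that of 2310061I04Rik, was 8864 bp from it. Of the 8 Dhx16 transcripts of the vM1 annotation on mm9, 5 begin at distances from the gene's 5′ end that fall within the span of this peak, from 7235 to 10266 bp, and 4 of those 5 are annotated as retained introns. These distances were measured within each build and no coordinate was moved between builds.

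Dhx58 lies between stronger peaks. The nearest strong one, 4961 bp wide with a signal of 57.1, had its summit 7995 bp upstream of the 5′ end, while 2 weak peaks with signals of 3.31 and 4.78 lay inside the gene.

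Eif4a1, a DEAD box gene outside the name rule, had a domain of 13751 bp with a signal of 71.5, close in both values to the 13664 bp and 74.0 of Dhx9. Ddx50 and Dhx30 had an equal signal, 69.9, at their downstream starts in the replicated list.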
